A study of Drosophila melanogaster with 5 samples.

Results

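Of the 9735 peaks of open chromatin under 1000 bp wide that the authors deposited for whole Drosophila embryos, 273 (2.80%, exact 95% interval 2.49 to 3.15%) overlapped 2 or more peaks of midline cells. They are called split embryo peaks here, and were chosen by their width and by an overlap of at least 1 bp with each midline peak. Both lists held 10000 peaks, and a further 151 embryo peaks with 2 or more midline peaks were 1000 bp wide or more and were not taken as members. The overlaps and widths chose the members, so their values are a description and carry no test. The peaks were called by the authors on pooled replicates, so no value has a replicate spread, and the intervals given cover counting error only.

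The study used FAIRE-seq, in which fixed chromatin is sonicated and extracted with phenol, and the nucleosome-depleted DNA left in the aqueous phase is sequenced. A pair of libraries came from midline cells of sim3.7-Gal4 UAS-mCD8::GFP embryos aged 6 to 8 hours, sorted by their GFP, and another pair from OregonR embryos of that age, used whole. The fifth library was input DNA from adult virgin females of the strain y;cn,bw,sp. The Gal4 line uses a fragment of the gene single-minded, so the sorted population is defined by the activity of that fragment and may hold any cell in which it is active. The midline cells were dissociated and sorted before fixation and the embryos were fixed whole, so cell type, strain and preparation cannot be told apart in any comparison below. The lists hold positions only, so the labelled cell type could not be checked against marker genes. No count of reads was given, and the depth of each library is unknown.

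FAIRE enriches promoters, enhancers and other regulatory elements, because bound transcription factors displace nucleosomes there. Single-minded is the transcription factor that sets up the midline of the fly nerve cord, whose cells become the midline glia and neurons and guide growing axons. A peak caller draws a peak where the signal stays above a threshold, and joins stretches that lie close together. An element can thus appear as 1 peak in one list and as several in another. The lists hold no signal along a peak, so whether the signal between the midline peaks differed was not tested. Coordinates are on build dm3 and count from 1. No dm3 sequence or gene annotation was used here, so regions are given by position and no gene or motif is named.

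Most split embryo peaks held a pair of midline peaks with a short stretch between them. Of the 273, 264 (96.7%, 93.8 to 98.5%) held 2 midline peaks and 9 held 3, which makes 555 overlaps. The median width of split embryo peaks was 752 bp, with quartiles of 617 and 876 bp, and the narrowest was 337 bp. The median width of the midline peaks inside was 260 bp (248 to 270 bp), against 312 bp (308 to 317 bp) for those in embryo peaks that held exactly 1. The whole midline list had a median of 275 bp (271 to 277 bp), which lay between these values and nearer to that in split embryo peaks. Part of the difference follows from the rule, since 2 midline peaks and a gap have to meet 1 embryo peak under 1000 bp. The split embryo peaks themselves were wider than the single-midline ones, whose median was 401 bp. The midline peaks inside were wider where the embryo peak was wider, with a median of 206 bp in embryo peaks of 300 to 599 bp, 258 bp in those of 600 to 799 bp and 299 bp in those of 800 to 999 bp.

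**Figure D1:**
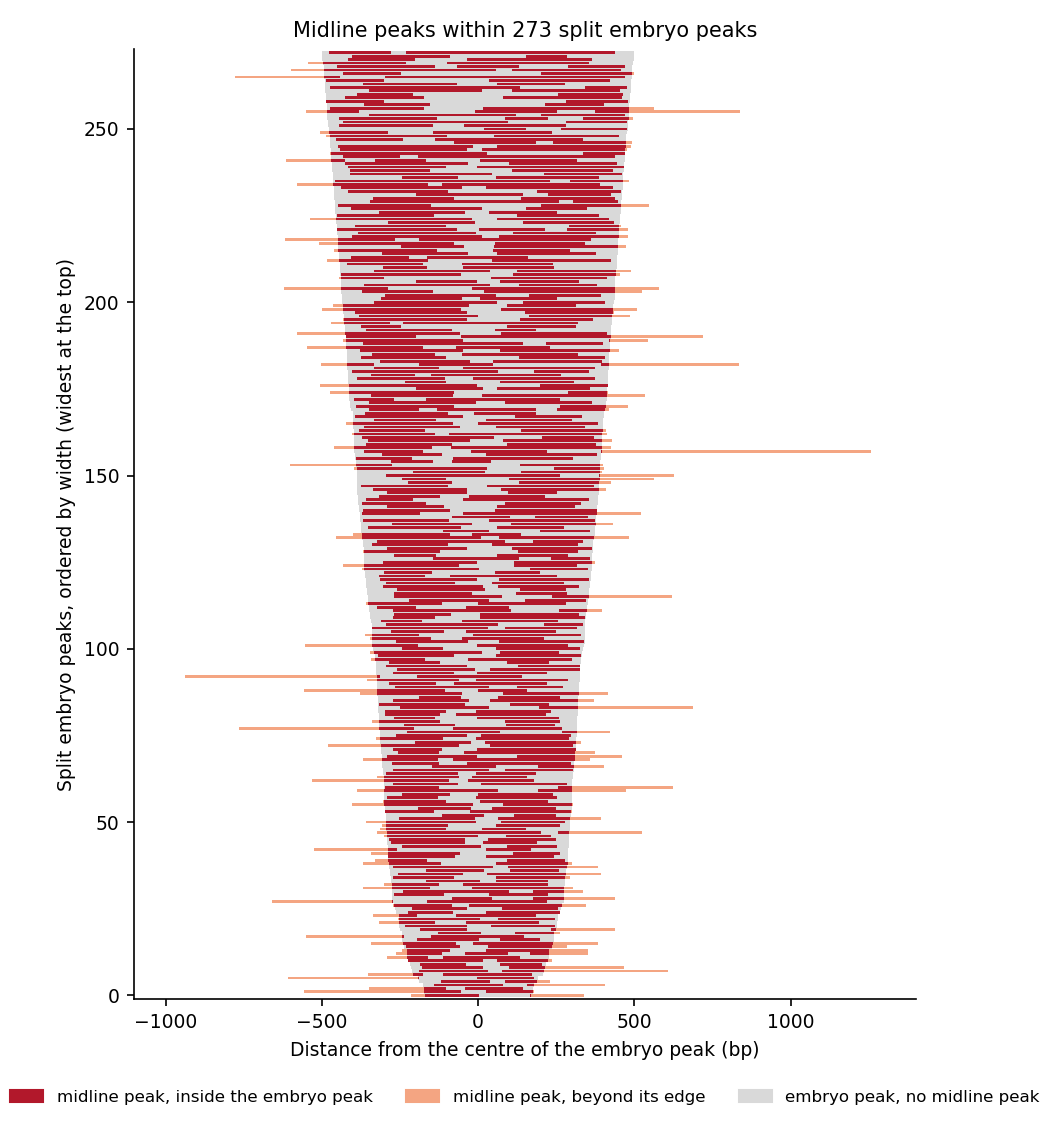
Each of the 273 rows is a split embryo peak (grey), ordered by width and aligned at its centre, with its midline peaks drawn in dark red inside the embryo peak and in light red where they run past its edge; the x axis is the distance from the centre in bp. The uncovered stretch lies near the centre in most rows, with a median position of 49.1% of the width from the left.

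The gap between neighbouring midline peaks was short. Over 282 gaps the median was 115 bp (105 to 123 bp), with quartiles of 76.3 and 161 bp and a range of 43 to 581 bp. Of these gaps, 116 (41.1%, 35.3 to 47.1%) were under 100 bp, 241 (85.5%, 80.8 to 89.4%) were under 200 bp and 281 were under 500 bp. The lower end is set by the list itself, since 43 bp was the smallest gap between any neighbouring midline peaks. The median gap was 86 bp in embryo peaks of 300 to 599 bp, 123 bp in those of 600 to 799 bp and 124 bp in those of 800 to 999 bp. Across the 264 embryo peaks with 2 midline peaks, width and gap had a Spearman correlation of 0.26, which is partly bounded by the width itself. The gap took up a median of 16.0% of the embryo peak.

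The gaps lay towards the middle of the embryo peak. Their centres had a median position of 49.1% of the width from the left edge (47.8 to 51.2%), and 254 of 282 (90.1%, 86.0 to 93.3%) lay between 25 and 75% of the width. The midpoint of the embryo peak fell in a gap for 131 of 282 gaps (46.5%, 40.5 to 52.5%). Part of this follows from the rule, since a midline peak has to fit on either side of the gap.

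The midline peaks mostly lay inside the embryo peak. Of the 555 overlaps, 385 (69.4%, 65.3 to 73.2%) were of midline peaks wholly inside. For the single midline peaks it was 2777 of 5125 (54.2%, 52.8 to 55.6%) over embryo peaks that were narrower, and 72.3% when weighted to the embryo widths of the split ones, so no excess was seen at like width. By embryo peak, the midline peaks ran past neither edge in 130 of the 273, past 1 edge in 116 and past both edges in 27. Where an edge of the embryo peak was left uncovered, the uncovered margin had a median of 52 bp on the left (187 embryo peaks) and of 52 bp on the right (185). The margins were thus about as wide on each side. They were narrower than the median gap between the midline peaks, but the lower ends differ, since the smallest gap was 43 bp and the smallest margin 1 bp.

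Some of the 273 rested on a thin overlap. In 17 (6.23%, 3.67 to 9.78%) a midline peak reached in by under 50 bp, and 7 of the 555 overlaps were under 10 bp. A further feature of this kind was that 13 of the 555 overlaps were of midline peaks that also overlapped a neighbouring embryo peak. With an overlap of at least 50 bp required, 259 embryo peaks remained split.

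Splitting was more frequent in wider embryo peaks. No embryo peak under 300 bp held 2 midline peaks. The share that did was 0.302% (0.111 to 0.657%) of 1985 embryo peaks at 300 to 399 bp, 4.38% (3.12 to 5.96%) of 868 at 500 to 599 bp, 16.0% (12.2 to 20.4%) of 332 at 700 to 799 bp and 37.9% (29.8 to 46.4%) of 140 at 900 to 999 bp. Of the 265 embryo peaks at 1000 bp or more, 57.0% (50.8 to 63.0%) were split. Width sets how many midline peaks of at least 125 bp, the narrowest in the list, can fit, so a rise of this kind follows in part from the rule.

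**Figure D2:**
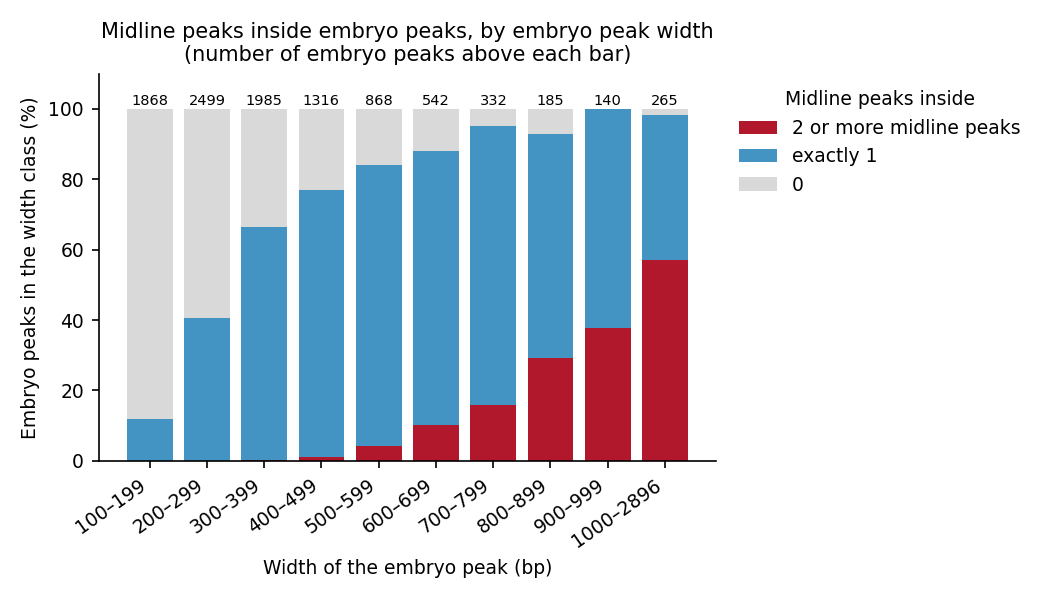
Bars give the percentage of embryo peaks in each width class (x axis, bp) that held 2 or more (red), exactly 1 (blue) or 0 (grey) midline peaks, with the number of embryo peaks above each bar. The red share is 0 under 300 bp and reaches 37.9% at 900 to 999 bp and 57.0% at 1000 bp or more.

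The limit of 1000 bp had split embryo peaks on both sides. Just inside it, 24 of 64 embryo peaks of 950 to 999 bp were split (37.5%, 25.7 to 50.5%), and just outside it 15 of 47 of 1000 to 1049 bp (31.9%, 19.1 to 47.1%), followed by 23 of 45 of 1050 to 1099 bp (51.1%, 35.8 to 66.3%). The widest members were at 3L 6489053 to 6490051 (999 bp, midline ranks 3711 and 5158, gap 47 bp), 3L 18178601 to 18179597 (997 bp, midline ranks 2933 and 8571, gap 244 bp) and X 19576993 to 19577989 (997 bp, midline ranks 6727 and 2605, gap 168 bp). The nearest outside were at 2L 6178487 to 6179486 (1000 bp, midline ranks 163 and 2755, gap 135 bp), 3R 1437680 to 1438684 (1005 bp, midline ranks 6727 and 4933, gap 116 bp) and 3R 13636715 to 13637723 (1009 bp, midline ranks 1670 and 9752, gap 82 bp). Ranks count from 1 for the highest score, and the midline ranks are given from left to right. The gaps and ranks on the 2 sides of the limit overlapped.

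Split embryo peaks scored high in the embryo list, but under 1000 bp they scored lower than single-midline embryo peaks of the same width. The score is the authors', on a scale that the files do not give, so it is expressed here as a percentile, the percent of the own list with a lower score. Split embryo peaks had a median percentile of 78.6 (74.6 to 81.0) and a median rank of 2140, with ranks between 22 and 9786. Of the 273, 150 (54.9%, 48.8 to 60.9%) were in the top 25% of the embryo list and 13 in the bottom 25%. Single-midline embryo peaks of all widths under 1000 bp had a median of 66.1 (65.0 to 67.0). Within width classes the order was the reverse. At 600 to 699 bp the medians were 72.5 for 55 split and 83.0 for 422 single-midline embryo peaks, and at 900 to 999 bp 82.3 for 53 split and 92.5 for 87 single-midline ones. Over the 273, the median difference from the single-midline median of the same 100 bp width class was -9.85 points (-11.4 to -6.81), and 82 split embryo peaks (30.0%) lay above it. Beyond the limit the order was not kept, since embryo peaks of 1000 bp or more had median percentiles of 92.4 for 151 split and 91.4 for 109 single-midline ones, and their strongest midline peaks 91.2 and 89.2, over a class that is not matched further by width.

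The same difference can be put as the share of split peaks along the embryo score within width classes. It rests on the same peaks and scores, so it is not a separate observation. Embryo peaks of 500 to 999 bp with at least 1 midline peak were divided into terciles of embryo score inside each width class. In the lowest tercile 123 of 610 were split (20.2%, 17.0 to 23.6%), in the middle one 88 of 611 (14.4%, 11.7 to 17.4%) and in the highest 42 of 614 (6.84%, 4.97 to 9.13%). No test was made, because the peaks of a list come from the same pooled libraries and are not replicates. How far depth or the peak caller's threshold sets these shares was not tested.

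**Figure D3:**
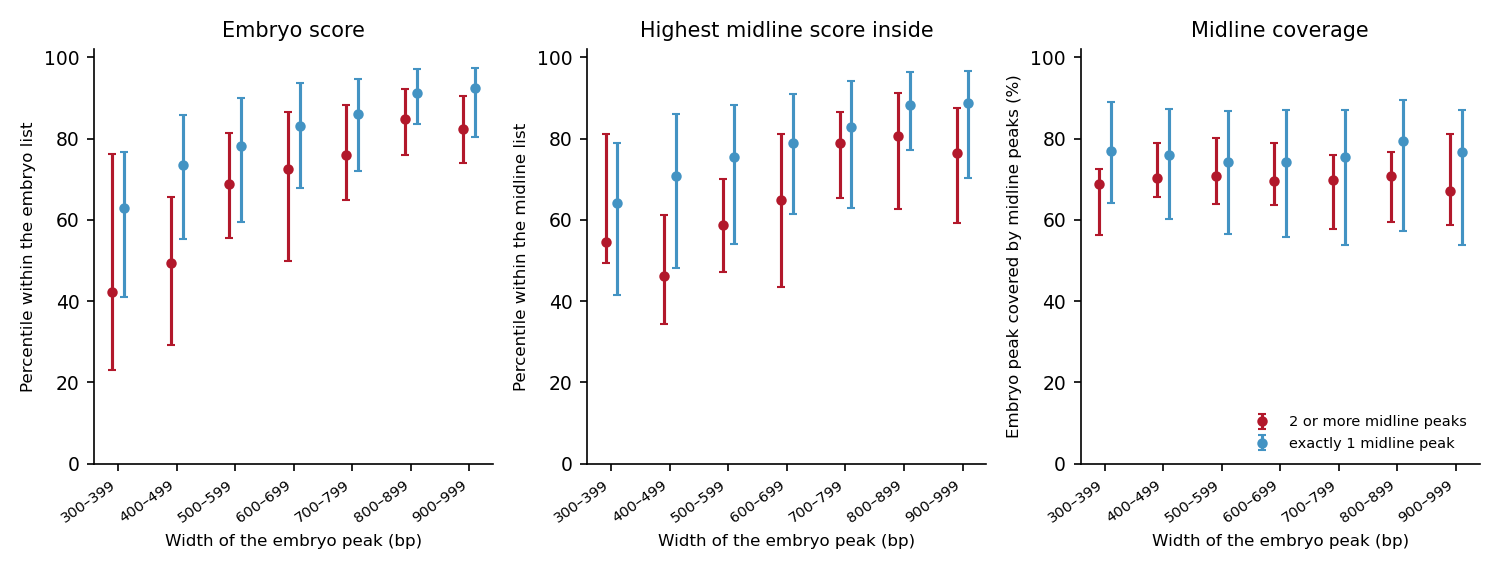
Points are medians and bars the quartiles of embryo peaks with 2 or more (red) and exactly 1 (blue) midline peak, by width class in bp: the percentile of the embryo score (left), the highest midline percentile inside (middle) and the percent of the embryo peak that midline peaks cover (right). The red medians lie under the blue ones in every class of all 3 panels, for example 72.5 against 83.0 for the embryo score at 600 to 699 bp.

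The strongest midline peak inside a split embryo peak also ranked lower than the midline peak of a single-midline embryo peak of the same width. At 500 to 599 bp the median percentile in the midline list was 58.8 for the strongest in split and 75.6 for single-midline embryo peaks, and at 800 to 899 bp it was 80.7 against 88.3. Over the 273, the median difference within width classes was -11.0 points (-13.8 to -8.46), and 75 (27.5%) lay above the single-midline median. The split embryo peaks take the highest of several midline peaks, which favours them in this comparison. With the mean over the midline peaks inside, the median difference was -29.8 points (-32.8 to -27.7), and 13 of 273 lay above the single-midline median. The mean includes a lower-scoring midline peak that single-midline embryo peaks lack by definition, so it is not a corrected value. Neither comparison was matched for the width of the midline peaks, which had medians of 260 bp in split and 312 bp in single-midline embryo peaks.

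Midline peaks covered less of a split embryo peak. Part of this follows from the rule, since a split embryo peak has to hold an uncovered gap, which a single-midline one need not. That gap took up a median of 16.0% of the embryo peak. The median coverage was 69.7% (68.5 to 72.2%) in split and 78.3% (77.6 to 79.0%) in single-midline embryo peaks. Within width classes the median difference was -5.62 points (-7.45 to -4.20). At 900 to 999 bp, coverage was 67.0% for split and 76.6% for single-midline embryo peaks. This direction depended on the length of the midline list: with the 5000 highest-scoring midline peaks alone, 85 embryo peaks were split and the median difference in coverage was 2.82 points, with an interval of -4.15 to 3.78 that spans 0. With that list the difference in embryo percentile was -4.76 points, and that in the highest midline percentile was -1.02 points, with an interval from -4.55 to 1.96.

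The midline peaks of a pair are given here as the higher and the lower by score, so a difference between them follows from the sorting. In the 264 embryo peaks with 2, the higher midline peak had a median percentile of 70.8 (66.0 to 74.5) and a median rank of 2913, and the lower one a percentile of 34.2 (28.8 to 39.9) and a rank of 6547. The median difference between them was 26.2 points (22.9 to 29.5), with a range of 0 to 89.7, and no value for unrelated midline peaks was set beside it. In the authors' scores the medians were 154 for the higher and 71 for the lower, where the midline list began at 44. The lower of the pair was in the bottom 25% of the list in 97 of 264 (36.7%, 30.9 to 42.9%), and the higher was in the top 25% in 113 (42.8%, 36.8 to 49.0%). Of the 5125 midline peaks in single-midline embryo peaks, which are not sorted in this way, 12.1% were in the bottom 25% and 37.7% in the top 25%.

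Both midline peaks were in the upper 50% of the midline list in 82 of 264 embryo peaks (31.1%, 25.5 to 37.0%), both in the lower 50% in 61 and on either side in 121. In 20 (7.58%, 4.69 to 11.5%) both were in the top 25%, and in 26 (9.85%, 6.53 to 14.1%) the higher was in the top 25% and the lower in the bottom 25%. No share for unrelated midline peaks was set beside these counts, so they are not read as a trait of the pairs. The higher-scoring peak was the wider one in 202 of 260 pairs with unequal scores and widths (77.7%, 72.1 to 82.6%), with median widths of 299 bp for the higher and 211 bp for the lower. Midline pairs outside split embryo peaks were not compared in this respect.

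The stronger midline peak had no fixed side along the coordinates. Left and right are set by the build, and no gene or motif oriented the regions, so nothing about orientation is read from this. The left one scored higher in 124 of 262 embryo peaks with 2 midline peaks of unequal score (47.3%, 41.2 to 53.6%), an interval that includes 50%. The left and right percentiles had a Spearman correlation of 0.08 over the 264 embryo peaks, a description across regions of the same pair of libraries. The embryo midpoint lay in the higher midline peak in 97 of 262 (37.0%, 31.2 to 43.2%), in the lower one in 37 (14.1%, 10.1 to 18.9%) and in the gap in 128 (48.9%, 42.7 to 55.1%). Where the midpoint was in a midline peak, this was thus more often the higher one, which was also the wider in most pairs. The embryo percentile had a Spearman correlation of 0.45 with that of the higher and of 0.21 with that of the lower midline peak. For the 5125 single-midline embryo peaks, of all widths under 1000 bp, it was 0.57 with their midline peak, a value not matched for width. All points of a correlation share the same pooled libraries and their depth, which the files do not give.

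**Figure D4:**
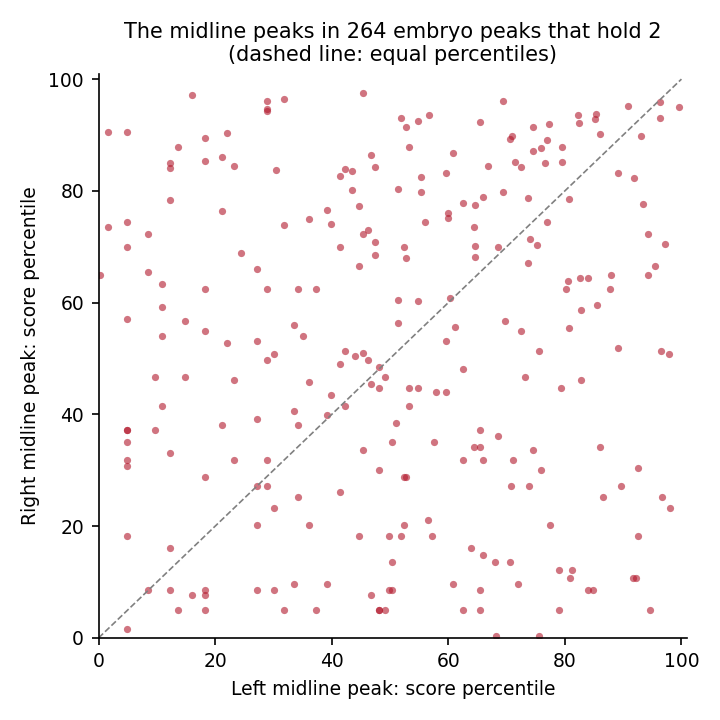
Each of the 264 points is an embryo peak with 2 midline peaks, plotted by the score percentile in the midline list of the left one (x axis) and of the right one (y axis), with a dashed line at equal percentiles. The points lie on both sides of the line, with the left peak higher in 124 of 262 unequal pairs, and show little relation (Spearman 0.08).

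The 9 embryo peaks with 3 midline peaks were 456 to 987 bp wide and ranked between 1521 and 7247 in the embryo list. Their 18 gaps had a median of 117 bp and ran from 59 to 370 bp. The highest-scoring midline peak was the left one in 5, the middle one in 1 and the right one in 3. Ends are most of the positions in a row of 3, so no preference for an end is read from this. On 2R at 20897937 to 20898772 the right one, of rank 210, overlapped the embryo peak by 24 bp, less than the 50 bp of the stricter rule. In 6 of the 9 the embryo midpoint lay in the middle midline peak.

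Of these, the one with the highest embryo score was on 3R at 21867227 to 21868213 (embryo rank 1521). Its midline peaks ranked 461, 4311 and 5436 from left to right and were 315, 198 and 183 bp wide, with gaps of 70 and 157 bp. The strongest was thus at the left end and the others followed in falling order. The same order was seen on 2L at 7056140 to 7057043, where a midline peak of rank 762 and 383 bp stood before peaks of ranks 6173 and 6440, with gaps of 72 and 69 bp.

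On X at 6593105 to 6593916 all 3 midline peaks were weak, with ranks 8462, 5915 and 7019, and they covered 77.6% of an embryo peak of rank 1653. The reverse order was seen on 3R at 5867976 to 5868914, with ranks 7924, 6727 and 2345 from left to right. On 2R at 2549312 to 2550102 the midline ranks were 6901, 3204 and 821. The last of these was an 864 bp midline peak that reached only 2 bp into the embryo peak and lay almost wholly to its right, so that this member holds 2 midline peaks once 50 bp of overlap are required.

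In the 5 split embryo peaks with the highest embryo score, the midline peaks inside ranked between 448 and 9094. The first, on X at 19744722 to 19745699, had an embryo score of 1273 and rank 22, whereas its midline peaks of 359 and 347 bp ranked 5363 and 2693, 96 bp apart. The second, on 2R at 13710766 to 13711646 (embryo rank 79), held midline peaks of ranks 448 and 3327, 167 bp apart. The third, on 3L at 8442832 to 8443576 (embryo rank 100), held ranks 3373 and 8462, 70 bp apart. Of the 6 midline peaks in these 3 regions, the one of rank 448 was the strongest.

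The fourth was on X at 21195015 to 21195520 (embryo rank 107), a peak of 506 bp with midline ranks of 9094 and 2755 and a gap of 99 bp. The fifth was on 2L at 2885718 to 2886486 (embryo rank 108), with midline ranks of 1925 and 4439 and a gap of 93 bp. All 5 gaps were under 200 bp.

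Strong midline peaks on both sides of a gap were found in other members. The embryo peak whose second midline peak had the best rank was on 3R at 25848212 to 25848861 (embryo rank 544), with midline ranks of 368 and 404. There the left midline peak, 622 bp wide, overlapped the embryo peak by 10 bp, so this pair too fails an overlap of 50 bp. On 2L at 4031195 to 4032090 (embryo rank 790) the midline ranks were 33 and 491, the first being the highest midline rank in any split embryo peak. The midline peaks there were 432 and 287 bp wide and 132 bp apart, and ranked ahead of the embryo peak that held them.

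The remaining 3 of these were on 2L at 17746860 to 17747722 (embryo rank 817, midline ranks 368 and 693, gap 126 bp), 3R at 10416473 to 10417459 (embryo rank 1367, midline ranks 913 and 486, gap 51 bp) and X at 7187928 to 7188835 (embryo rank 164, midline ranks 693 and 1008, gap 80 bp). On the X the embryo peak ranked ahead of both its midline peaks, and in the 2 autosomal ones both midline peaks ranked ahead of the embryo peak.

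The widest gap, 581 bp, was on 2R at 19441407 to 19442378, where midline peaks of 186 and 198 bp lay at either end of a 972 bp embryo peak and covered 39.4% of it. Their ranks were 3373 and 2084. On 3R at 14070092 to 14071065 the gap was 463 bp between midline peaks of ranks 8854 and 4063, which covered 39.8%. In both of these the centre of the embryo peak held no midline peak. The gap of 467 bp on 3L at 15217851 to 15218695 was of another kind, since the right midline peak (rank 8571) overlapped the embryo peak by 3 bp.

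The narrowest gap, 43 bp, was found on 3R at 11116199 to 11117054, X at 11233504 to 11234107 and 2L at 1463296 to 1463743. The midline ranks from left to right were 6727 and 363 in the first, 2746 and 4487 in the second and 4988 and 9094 in the third. The embryo peaks ranked 199, 1819 and 2834.

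Neighbouring midline peaks were seldom kept apart in the embryo list when the gap was short. Over all 2023 neighbouring midline pairs less than 600 bp apart, members or not, 467 (23.1%, 21.3 to 25.0%) were spanned by 1 embryo peak of any width. The share was 74.9% (68.8 to 80.3%) of 235 pairs under 100 bp apart, 45.0% (40.2 to 49.98%) of 413 at 100 to 199 bp, 16.1% (12.6 to 20.0%) of 411 at 200 to 299 bp and 1.09% (0.226 to 3.17%) of 274 at 500 to 599 bp. Pairs in which each midline peak met an embryo peak of its own made up 6.81% under 100 bp and 43.3% at 200 to 299 bp. The lower-scoring midline peak had a median percentile of 41.4 in pairs that were spanned, 54.9 in pairs with separate embryo peaks and 18.3 in pairs where neither met an embryo peak.

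The reverse was less frequent. Of 224 neighbouring embryo pairs under 100 bp apart, 10.3% (6.62 to 15.0%) were spanned by 1 midline peak, and of 361 at 100 to 199 bp 3.32% (1.73 to 5.73%). In the other direction of the rule, 34 midline peaks under 1000 bp held 2 or more embryo peaks. The median widths of 275 bp in the midline list and 329 bp in the embryo list do not match, so holding peaks of the same widths were set side by side. The widths of the peaks held inside were left unmatched. At 500 to 999 bp, 20 of 1159 midline peaks (1.73%, 1.06 to 2.65%) held 2 or more embryo peaks, and 253 of 2067 embryo peaks (12.2%, 10.9 to 13.7%) held 2 or more midline peaks. At 300 to 399 bp the shares were 0.249% (0.0810 to 0.581%) and 0.302% (0.111 to 0.657%), with intervals that overlap. How sequencing depth, the peak caller's settings, the widths of the peaks held inside or the cutting of both lists at 10000 peaks enter this difference was not tested.

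**Figure D5:**
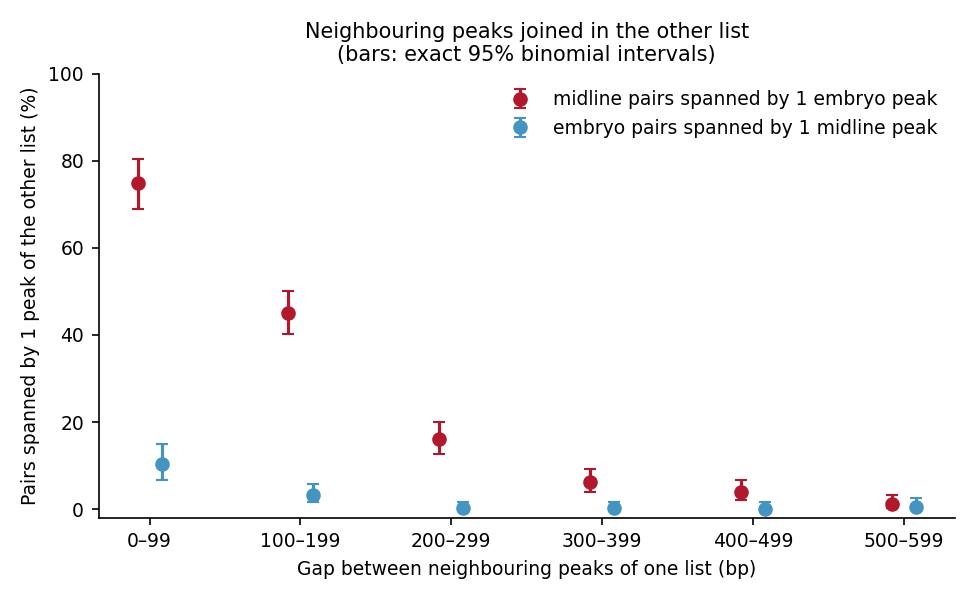
Points give the percentage of neighbouring midline pairs spanned by 1 embryo peak (red) and of neighbouring embryo pairs spanned by 1 midline peak (blue), by the gap within the pair in bp, with exact 95% binomial intervals. The red share falls along the gap classes, 74.9% at 0 to 99 bp and 1.09% at 500 to 599 bp, and the blue share is 10.3% at 0 to 99 bp.

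The midline peaks inside were neighbours in the longer numbering of the authors too. The numbers in the peak names run to 15189 in the midline list, so calls were left out of the deposited 10000, if the numbers were given before that selection. Of the 282 neighbouring pairs inside split embryo peaks, 280 (99.3%, 97.5 to 99.9%) had consecutive numbers, and so no further call between them. For unspanned pairs at gaps up to 581 bp it was 1487 of 1508 (98.6%, 97.9 to 99.1%), so this was not particular to the split embryo peaks. Under 200 bp, where 241 of the 282 gaps lay, all pairs of both kinds had consecutive numbers. Length largely fixes this, since the narrowest listed midline peak was 125 bp and the smallest gap between midline peaks 43 bp. On that assumption, 280 of the 282 gaps held no weaker midline call, but most were too short to hold one of the listed widths.

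Split embryo peaks were spread over the genome. 3R held 69, 2L and 2R 57 each, 3L 48 and X 42. Among embryo peaks of 500 to 999 bp with a midline peak, the share that was split ran from 12.2% (9.13 to 15.9%) on 3L to 16.8% (12.8 to 21.4%) on 2L, with 14.0% (10.1 to 18.7%) on X, and the intervals of all 5 arms overlap. Neighbouring split embryo peaks on an arm lay a median of 272 kb apart. In 10 of 273 cases (3.66%, 1.77 to 6.63%) the next embryo peak along the arm was split as well. That interval includes the 2.80% split among all embryo peaks under 1000 bp.

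The closest pair of members, 61 bp apart on 3L at 1861373 to 1861727 and 1861789 to 1862361, shared a midline peak of rank 4376 that bridged them, so that 3 midline peaks met 2 embryo peaks there. The next closest, 330 bp apart on 3R at 24888633 to 24889116 and 24889447 to 24890145, held 4 separate midline peaks of ranks 6614, 8990, 9271 and 6901. Both pairs were picked after their values were seen.

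Fewer split embryo peaks had a further midline peak close by. Within 1000 bp outside the embryo peak, 121 of 273 (44.3%, 38.3 to 50.4%) had another midline peak, against 53.3% of single-midline embryo peaks weighted to the same widths. Within 5000 bp the shares were 76.6% (71.1 to 81.5%) and 85.7%. For further embryo peaks the shares were closer, with 54.9% (48.8 to 60.9%) and 54.8% within 1000 bp and 82.8% (77.8 to 87.1%) and 85.3% within 5000 bp. The midline peaks already counted inside an embryo peak are left out of these shares, which removes more of them from split than from single-midline embryo peaks, and no test was made.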

How the data were processed

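The authors deposited 2 lists of peaks, 1 for the pooled midline libraries and 1 for the pooled whole-embryo libraries, as the names in the files state. Per the submitters' processing notes, CASAVA 1.8.2, Bowtie2, SAMtools, bedtools and MACS2 were used with the dm3 build. The sources used here give neither their settings nor how the input entered. The deposited score is a whole number on an unstated scale and was used only to rank peaks within its list, with tied scores given their mean percentile. The lists were used whole.

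Overlaps were computed with pandas 2.3.3, scipy 1.17.1 and numpy 2.4.6 under Python 3.11.15, and checked on simulated lists. Split embryo peaks were compared with single-midline ones in width classes of 100 bp, as the difference from the median of the class. Shares have exact Clopper-Pearson 95% intervals. Medians have order-statistic 95% intervals, in which the class medians are taken as fixed. No test was made. The regions named are the 5 with the most midline peaks, the 5 with the highest embryo score, the 5 with the best second midline rank, those with the 3 widest and 3 narrowest gaps, and 3 on either side of the width limit. Members, rules and lists were chosen with earlier results of these data known. Alternatives changed the overlap rule, the width limit, the list lengths, the width classes and, after seeing the data, the single-midline peaks used.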

Additional observations from a re-analysis of the deposited data

How the results depend on the processing

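The 7 summary values were recomputed with an overlap of at least 50 bp, midline midpoints inside the embryo peak, no width limit and the 5000 highest-scoring peaks of either list, and the 3 compared by width also with width classes of 50 bp. The number of split embryo peaks was 273, 424 without a width limit and 85 with 5000 midline peaks, and lay between 228 and 259 under the others. The median gap stayed between 113 and 122 bp. The difference in embryo percentile was -6.25 points without a width limit and -4.76 with 5000 midline peaks, and that in the highest midline percentile was -7.96 and -1.02. The difference in coverage was 2.82 points with 5000 midline peaks, the only sign that changed. Under the same setting the left midline peak was higher in 40.0%. Restricting the comparison to single-midline embryo peaks whose midline peak had consecutively numbered neighbours, chosen after seeing the data, gave -9.57 points in coverage. Why these values moved was not tested, beyond the fewer midline peaks or more embryo peaks that the settings admit. No paired analysis was possible because peaks came from pooled replicates, which also left no replicate to omit. The lists give no read depth.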
